A study of Mus musculus with 36 samples.

Results

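The antioxidant response and selenoprotein genes are 10 liver transcripts, selected by gene symbol from a count table of 54532 genes. They are *Nfe2l2*, *Nqo1*, *Gclc*, *Gclm*, *Txnrd1*, *Srxn1*, *Gsr*, *Gpx1*, *Gpx4* and *Selenop*, and all 10 passed the filter of at least 100 counts summed over the 36 libraries, together with 17994 genes in total. Liver mRNA of 36 male mice aged 2 to 3 months was sequenced, 3 of each genotype at every one of 6 sampling times, ZT2, ZT6, ZT10, ZT14, ZT18 and ZT22, where ZT is the time in hours after lights on. The THRB WT group consists of heterozygotes (THRB+/-), which carry a disrupted *Thrb* allele themselves, and the THRB KO group of homozygous knockouts (THRB-/-) that lack both isoforms of thyroid hormone receptor beta in every tissue. Both came from the B6.129S1-Thrbtm1Df/J line on the C57Bl/6NCrl background, received normal chow and water ad libitum, and lived under equal light and dark phases. Every difference between genotypes is therefore one between mice with no and mice with a single intact *Thrb* allele.

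NRF2, the product of *Nfe2l2*, is a transcription factor that the adaptor KEAP1 marks for degradation until electrophiles or oxidants modify KEAP1, and it then binds antioxidant response elements with small MAF partners. Its classical targets in hepatocytes make and recycle glutathione, supply reducing equivalents to thioredoxin and remove quinones. Selenoproteins carry selenocysteine and include glutathione peroxidases, thioredoxin reductases, the deiodinases that convert thyroid hormone, and selenoprotein P, which the liver secretes to deliver selenium to other tissues.

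Libraries held 29063273 to 39913574 counts in THRB WT and 31008555 to 42530551 in THRB KO livers. *Thrb* itself was counted at 24.3 to 38.5 counts per 1000000 (CPM, on library sizes scaled by the TMM method) in THRB WT and at 26.2 to 37.7 CPM in THRB KO livers. This count covers the whole gene and not the disrupted part alone, so it does not check the genotype labels. Hepatocyte markers (5 of 6 symbols matched) summed to 61384 to 87591 CPM in THRB WT and 67300.1 to 91723 CPM in THRB KO livers, whereas 4 lymphocyte markers reached at most 3.04 and 2 neutrophil markers at most 1.78 CPM. Kupffer cell markers summed to 156 to 463 CPM in THRB WT and 162 to 304 CPM in THRB KO livers, endothelial markers to 69.4 to 143 and 86.8 to 156 CPM, stellate markers to 91.8 to 238 and 135 to 282 CPM, and cholangiocyte markers to 6.81 to 18.3 and 5.38 to 13.4 CPM. Erythroid markers reached at most 862 and pancreatic acinar markers at most 0.822 CPM. In whole liver, fewer cells of a type and less RNA per cell cannot be told apart. In 2 mice, THRB WT mouse b at ZT6 and THRB KO mouse c at ZT14, the antioxidant enzyme transcripts stood above both other mice of their group, as described further on. They were singled out after their values were seen, and the results that rest on them are given with and without them.

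RefSeq promoter sequences of GRCm38.p6, from 250 bases before to 50 bases after a transcript start, were at hand for 8 of the 10 genes, in 15 windows. *Gclc* and *Gsr* had no entry. The letters TGACNNNGC, the core of the antioxidant response element to which NRF2 binds with small MAF proteins, occurred on either strand in 4 of these 8 genes and in 4 of the 15 windows, and in 12.4% of all 32817 promoters of the same length. The matches are printed with 10 bases on each side, read 5′ to 3′ on the strand that carries the match, with the match in capitals, because NRF2, which *Nfe2l2* encodes, is known to bind such elements in the promoters of its targets.
Nfe2l2: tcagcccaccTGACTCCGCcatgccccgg
Gclm: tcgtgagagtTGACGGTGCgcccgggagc
Txnrd1: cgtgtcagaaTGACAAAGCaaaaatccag
Srxn1: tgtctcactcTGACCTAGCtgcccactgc
The match lay 240 to 232 bases before the start of *Nfe2l2* (chr2:75704895-75704903, gene on the minus strand), 134 to 126 bases before that of *Gclm* (chr3:122245423-122245431, gene on the plus strand) and 92 to 84 bases before 1 of the 3 starts listed for *Txnrd1* (chr10:82859114-82859122, gene on the plus strand), a start that lies inside the span of the gene. In *Srxn1* it lay 29 to 37 bases into the transcript (chr2:152105552-152105560, gene on the plus strand). Only the *Nfe2l2* match was in the orientation of its gene. *Gclm*, whose transcript varied with sampling time in both genotypes, is shown with the 250 bases upstream of its start (chr3:122245307-122245556, plus strand), again with the match in capitals, here on the opposite strand.
Gclm upstream: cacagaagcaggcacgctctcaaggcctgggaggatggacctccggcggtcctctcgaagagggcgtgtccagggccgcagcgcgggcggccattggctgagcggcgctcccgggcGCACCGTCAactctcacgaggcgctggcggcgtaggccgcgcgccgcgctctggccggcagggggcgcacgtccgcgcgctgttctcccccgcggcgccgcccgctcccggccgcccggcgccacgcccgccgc
The E-box CACGTG, a palindrome bound by clock proteins among other factors, occurred in 0 of the 8 genes and in 7.15% of all promoters, which says only that these letters are not in these windows. A match is a description of the sequence and no measure of binding.

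Per length of the gene model, the 10 transcripts spanned from the most abundant of the liver to modest ones. *Gpx1*, the main cytosolic glutathione peroxidase, averaged 1491 ± 174 CPM per kb (SD, n = 36) and ranked 42 of 17994 genes. *Selenop*, the selenium transport protein, followed at 1248 ± 135 CPM per kb and rank 48. These neighbours did not separate beyond their spread, with *Gpx1* above *Selenop* in 31 of 36 livers. *Gpx4*, which reduces lipid hydroperoxides in membranes, averaged 139.7 ± 14.6 CPM per kb, and *Gclc*, the catalytic subunit of glutamate-cysteine ligase, 92.1 ± 24.1 CPM per kb. *Gclm*, the modifier subunit of this rate-limiting enzyme of glutathione synthesis, stood lower at 40.6 ± 5.37 CPM per kb, and the ranges of *Gclc* and *Gclm* did not overlap, with *Gclc* 2.27-fold higher. *Gsr*, the enzyme that regenerates reduced glutathione, averaged 27.8 ± 3.24 CPM per kb. *Txnrd1*, the cytosolic thioredoxin reductase, had 19.9 ± 1.81 and *Nfe2l2* 18.9 ± 2.53 CPM per kb, and their order changed between mice, with *Txnrd1* above *Nfe2l2* in 21 of 36. *Srxn1*, sulfiredoxin, which restores overoxidised peroxiredoxins, reached 15.9 ± 2.83 CPM per kb. *Nqo1*, a quinone reductase widely used as a readout of NRF2, was the lowest of the 10 at 4.12 ± 1.47 CPM per kb, below *Srxn1* in 36 of 36 livers, with 126 to 654 counts per library behind each value. Of the summed level per length of 24 selenoprotein genes, *Gpx1* held 38.4% and *Selenop* 32.2%, *Gpx4* 3.60% and *Txnrd1* 0.514%.

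**Figure D1:**
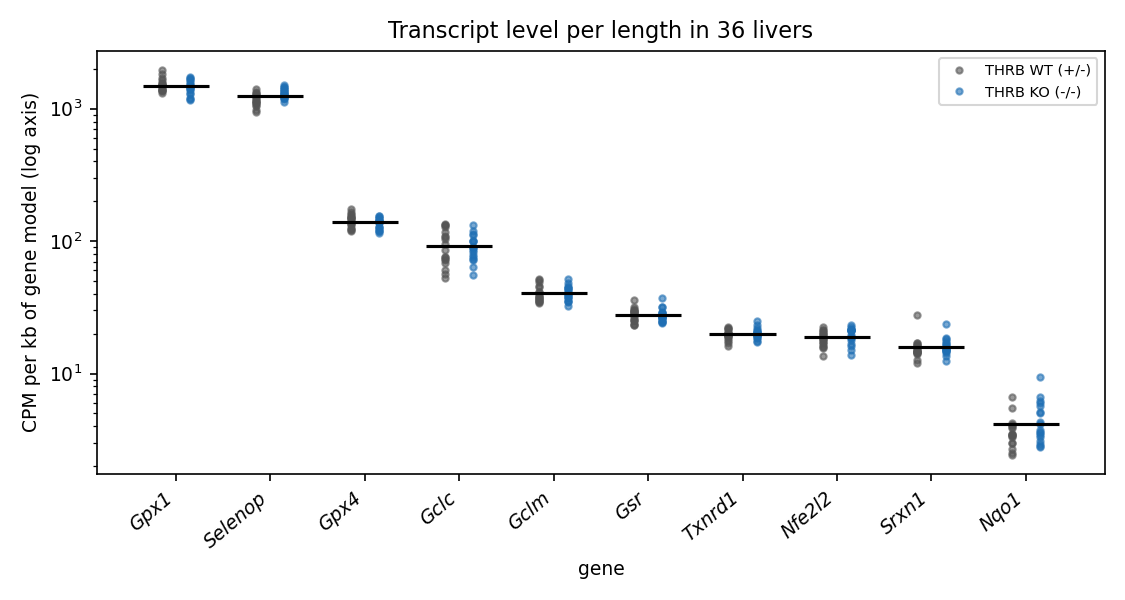
Level of each gene in CPM per kb of gene model (log axis) in each of the 36 livers, THRB WT in grey and THRB KO in blue, with a bar at the mean over all 36. The points of the 2 genotypes overlap for each gene, and the gap between Selenop and Gpx4 is 8.94-fold.

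On GRCm38, *Nfe2l2* lies at chr2:75675513-75704641 on the minus strand and *Srxn1* at chr2:152105516-152111376 on the plus strand of the same chromosome. *Nqo1* (chr8:107388225-107403206, minus strand) and *Gsr* (chr8:33652523-33698163, plus strand) share chromosome 8, *Gclc* (chr9:77754535-77794485, plus strand) and *Gpx1* (chr9:108338903-108340343, plus strand) chromosome 9, and *Txnrd1* (chr10:82833951-82897712, plus strand) and *Gpx4* (chr10:80047166-80056439, plus strand) chromosome 10. *Gclm* lies at chr3:122245557-122270732 and *Selenop* at chr15:3268547-3280508, both on the plus strand. The libraries were not strand-specific, and reads of near-identical or overlapping genes bear on some of these levels. *Gpx4* shares 99.7% identity over 733 bases with the processed transcript *Gpx4-ps2*, which was counted at 16.8% of the *Gpx4* counts, and a pseudogene, *AC122253.3*, is 95.1% identical over 510 bases. Reads that match more than 1 of them may be split or lost, so the *Gpx4* level is uncertain by an amount these counts do not give. *Ccdc152* lies opposite *Selenop* over 439 bases and held 0.239% of its counts. Other overlapping genes of *Nfe2l2*, *Gclm*, *Txnrd1* and *Gsr* held at most 0.220% of the member's counts.

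Whether loss of THRB altered these transcripts was first asked over all sampling times, with time in the model. None of the 10 genes passed an adjusted p of 0.05 (edgeR's quasi-likelihood test, Benjamini-Hochberg over 17994 genes), a threshold that 0.95% of all tested genes passed. At an unadjusted p under 0.05 there were 2 of 10, *Selenop* and *Nqo1*, beside 12.1% of all genes. The median log2 fold change of THRB KO over THRB WT was 0.03 over the 10 genes and -0.0011 over all tested genes, and 6 of 10 fold changes were above 0, beside 49.5% of all genes.

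**Figure D2:**
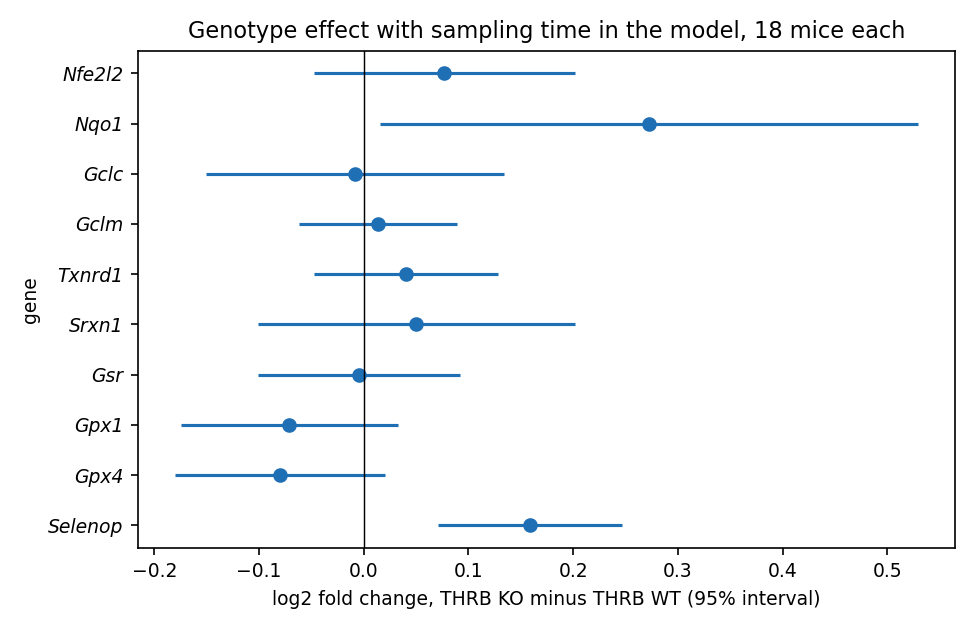
Log2 fold change of THRB KO over THRB WT for each gene with its 95% interval, from the model with sampling time over 18 mice per genotype. The intervals of Selenop and Nqo1 lie above 0 and those of the other 8 genes include 0.

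*Selenop* came closest to the threshold, at an adjusted p of 0.0669 in edgeR's test, and its rank by p was 223 of 17994 genes. At ZT2 it was counted at 2688, 3438 and 2761 CPM in THRB WT and 3369.9, 3674 and 3207 CPM in THRB KO livers. ZT6 livers held 3140.2, 3759 and 3391 CPM in THRB WT and 3901, 3470.3 and 3685 CPM in THRB KO. ZT10 livers held 3027, 4034 and 3689 CPM in THRB WT and 3809.5, 4154 and 3688 CPM in THRB KO. Through the light phase the THRB KO mean was above the THRB WT mean at each time, yet the mice of the genotypes overlapped. ZT14 livers held 3197, 3796 and 3565 CPM in THRB WT and 3434, 4287 and 3999 CPM in THRB KO. At ZT18 the values were 3275, 3601 and 3163 CPM in THRB WT and 3412, 3976 and 3865 CPM in THRB KO. At ZT22 they were 3002, 3255 and 3576 CPM in THRB WT and 3655, 4178 and 3553 CPM in THRB KO. The THRB KO mean was thus higher at 6 of 6 times, as for 3.94% of all genes, while at none of the 6 times did the mice separate completely. Over all times the level was 3353 ± 364 CPM in THRB WT and 3740.0 ± 305 CPM in THRB KO livers (SD, n = 18 each), which on the log2 scale is a difference of 0.16 (standard error 0.0433, 95% interval 0.07 to 0.25). Within each letter of the labels (a, b or c, 6 mice per genotype), the THRB KO mean was the higher, at 3597 ± 225 against 3055 ± 207 CPM for a, 3957 ± 321 against 3647 ± 277 CPM for b and 3666 ± 274 against 3358 ± 345 CPM for c. The adjusted p of *Selenop* fell below 0.05 without the 2 mice that stand apart (0.0456) and without THRB KO mouse a at ZT14 (0.0387). It did so too with DESeq2 (0.0196) and with THRB WT and THRB KO mice of the same time and letter as blocks (0.0136). Over all tested genes, calls for genotype rose in these runs as well, from 171 to 252, 194, 306 and 387, respectively. The adjusted p of *Selenop* was 0.239 without sampling time in the model and 0.0696 to 0.586 when the mice of 1 letter were left out.

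*Nqo1* was measured at a lowest, median and highest level of 3.78, 5.38 and 10.3 CPM in THRB WT and 4.31, 6.12 and 14.6 CPM in THRB KO livers. On the log2 scale the THRB KO level exceeded the THRB WT level by 0.27 (standard error 0.126, 95% interval 0.02 to 0.53), with an unadjusted p of 0.0382 and an adjusted p of 0.375 from edgeR's test. Without the 2 mice that stand apart the difference was 0.29 with an adjusted p of 0.2. The genotypes overlapped over most of their range, and the highest of the 36 values belonged to THRB KO mouse c at ZT14. For *Nfe2l2*, the lowest, median and highest values were 51.8, 69.3 and 84.6 CPM in THRB WT and 52.1, 77.2 and 88.9 CPM in THRB KO livers, with a log2 fold change of 0.08 (standard error 0.0614, 95% interval -0.05 to 0.20). The fold changes of *Txnrd1*, *Srxn1*, *Gclm*, *Gclc* and *Gsr* lay between -0.01 and 0.05 on the log2 scale. *Gpx1* (-0.07, adjusted p = 0.632) and *Gpx4* (-0.08, adjusted p = 0.547) had the lowest fold changes of the 10, and both intervals included 0. The 95% intervals of the 8 genes other than *Selenop* and *Nqo1* lay between -0.18 (*Gpx4*) and 0.20 (*Srxn1* and *Nfe2l2*).

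At single sampling times, 3 mice were compared with 3, and 0 of 10 genes passed the adjusted threshold at any time (edgeR), where 0.0278% of all genes passed at ZT2, 0.0111% at ZT6, 0.0167% at ZT10, 0.0167% at ZT14, 0.0222% at ZT18 and 0.0222% at ZT22. At an unadjusted p under 0.05 there were 0 of 10 genes at ZT2 (5.43% of all genes), 1 at ZT6 (4.37%), 1 at ZT10 (4.12%), 4 at ZT14 (5.34%), 0 at ZT18 (5.36%) and 1 at ZT22 (4.73%). The 4 genes at ZT14 were *Nqo1*, *Txnrd1*, *Srxn1* and *Gsr*, with log2 fold changes of 0.65, 0.24, 0.35 and 0.27. Without THRB KO mouse c at ZT14 and THRB WT mouse b at ZT6 the same fold changes were 0.32, 0.13, 0.07 and 0.06, and none of the 4 unadjusted p-values was under 0.05. Without THRB KO mouse a at ZT14, which held the lowest value of its group for the same enzymes, they were 0.81, 0.31, 0.55 and 0.37, *Gclm* joined them at 0.21 (unadjusted p = 0.0467), and none of the 10 passed the adjusted threshold. *Srxn1* at ZT6 likewise moved from -0.40 to -0.07 without these mice. *Nqo1* at ZT10 (log2 fold change 0.66, unadjusted p = 0.0294) and *Gclc* at ZT22 (-0.34, unadjusted p = 0.0374) did not rest on them, at 0.66 and -0.34 without them. Complete separation of the 3 THRB KO from the 3 THRB WT values was seen for *Srxn1* at ZT2 (1 of 10 genes, beside 12.9% of all genes), *Gsr* at ZT6 (1 of 10, 8.41%), *Nqo1* and *Srxn1* at ZT10 (2 of 10, 7.95%), and *Gclc* and *Gsr* at ZT22 (2 of 10, 9.94%). No member separated at ZT14 (10.2% of all genes) or ZT18 (10.4%).

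*Gclc* and *Gclm*, which encode the subunits of glutamate-cysteine ligase, varied with sampling time in both genotypes. With genotype in the model, 4 of 10 genes passed an adjusted p of 0.05 for sampling time (edgeR), *Gclc*, *Gclm*, *Gsr* and *Nqo1*, beside 45% of all tested genes, so the share among the 10 was no larger than the background. For a rhythm of 24 h within a genotype, 3 of 10 passed in THRB WT livers (*Gclc*, *Gclm* and *Gsr*) beside 33% of all genes, and 3 of 10 in THRB KO livers (*Gclc*, *Gclm* and *Nqo1*) beside 28.9%.

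**Figure D3:**
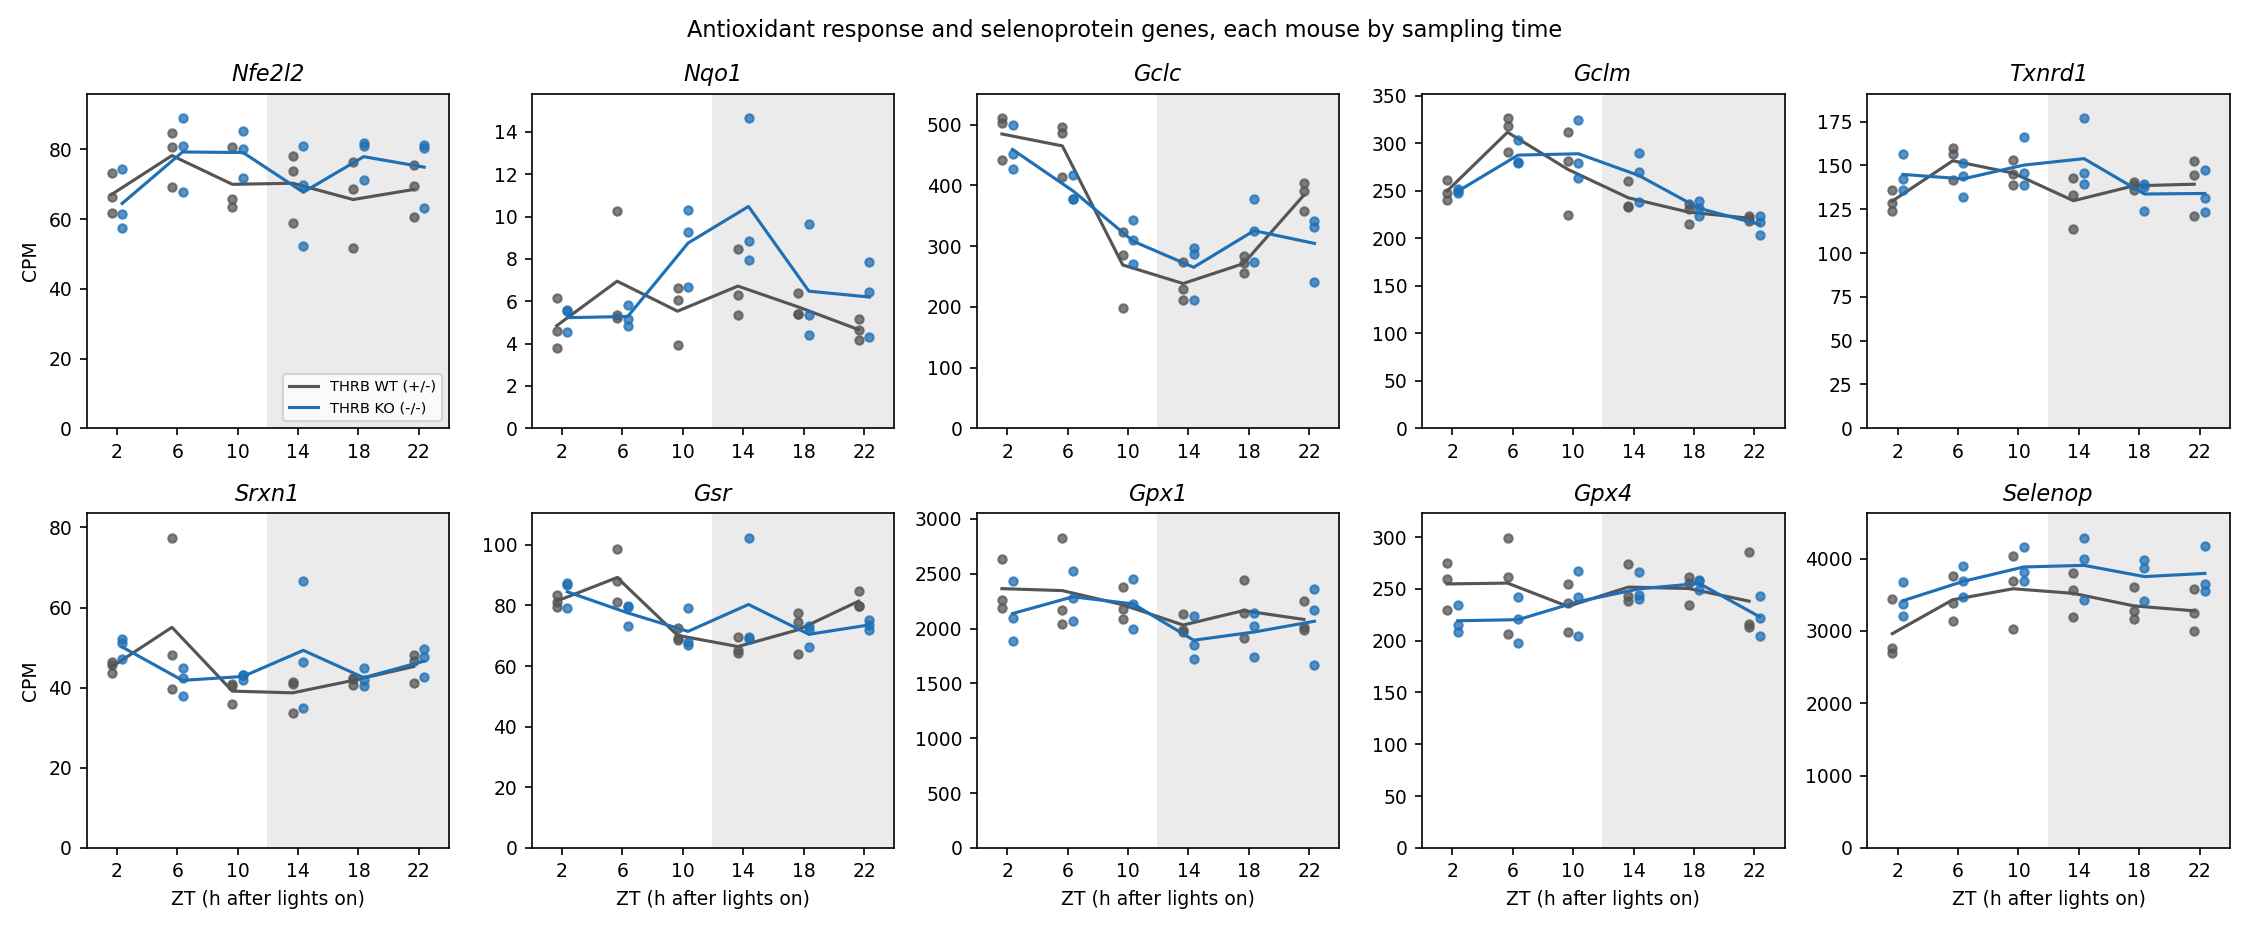
CPM of each gene in each mouse (points) against sampling time in hours after lights on, with lines through the means of 3 mice, THRB WT in grey and THRB KO in blue, and the dark phase shaded. Gclc falls from a mean of 472 CPM at ZT2 to 252 CPM at ZT14, and single high points stand out for Srxn1 and Gsr at ZT6 in THRB WT and at ZT14 in THRB KO.

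*Gclc* had the strongest time course of the 10 genes by p. At ZT2 it was counted at 441, 510.2 and 502 CPM in THRB WT and 426, 452 and 499 CPM in THRB KO livers. At ZT6 the values were 414, 495 and 485 CPM in THRB WT and 378, 378 and 416 CPM in THRB KO. At ZT10 they were 197, 286 and 324 CPM in THRB WT and 270.3, 310.4 and 343 CPM in THRB KO. All 12 mice at ZT2 and ZT6 were above all 6 mice at ZT10. ZT14 livers held 229.5, 274 and 211 CPM in THRB WT and 211, 287 and 297 CPM in THRB KO. ZT18 livers held 284, 256 and 273 CPM in THRB WT and 274, 324 and 377 CPM in THRB KO. ZT22 livers held 404, 357 and 391 CPM in THRB WT and 241, 331 and 341 CPM in THRB KO. The trough lay at ZT14, and by ZT22 all 3 THRB WT mice were above all 3 THRB KO mice. Over both genotypes the mean was 472 ± 36 CPM at ZT2 and 252 ± 39.0 CPM at ZT14 (SD, n = 6 each), a 1.87-fold difference without overlap, with an adjusted p for sampling time of 3.1e-07 in edgeR's test. The rhythm had an adjusted p of 2.8e-06 in THRB WT livers and 0.00596 in THRB KO livers, the latter 0.0692 without the mice lettered b.

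*Gclm*, the partner subunit, peaked later. ZT2 livers had 261, 248 and 241 CPM in THRB WT and 249.6, 251 and 247 CPM in THRB KO. At ZT6 they had 291, 326 and 318 CPM in THRB WT and 303, 280.1 and 279 CPM in THRB KO. At ZT10 they had 225, 281 and 312 CPM in THRB WT and 264, 279 and 324 CPM in THRB KO. The highest values of both genotypes thus fell in the light phase, with THRB WT mouse a at ZT10 well below its group. ZT14 livers had 233, 261 and 234 CPM in THRB WT and 239, 270.0 and 289.8 CPM in THRB KO. At ZT18 the level was 231, 215 and 236 CPM in THRB WT and 232, 223 and 239 CPM in THRB KO. By ZT22 it was 218, 221 and 224 CPM in THRB WT and 203, 223 and 217 CPM in THRB KO. Levels declined through the dark phase, and all 6 mice at ZT22 were below all 6 at ZT6, with means of 218 ± 7.5 and 299.6 ± 19.6 CPM (SD, n = 6 each) and a 1.38-fold difference. The adjusted p was 1.7e-06 for sampling time, 0.00145 for a rhythm in THRB WT livers and 4.1e-04 in THRB KO livers (edgeR). The fitted peak of *Gclm* was at 7.26 ± 0.72 h in THRB WT livers and 8.85 ± 0.527 h in THRB KO livers (± standard error of a cosinor on log2 CPM), whereas that of *Gclc* was at 2.45 ± 0.434 h and 3.05 ± 0.935 h.

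*Gsr*, which returns oxidised glutathione to its reduced form, varied less. At ZT2 the level was 83.6, 79.5 and 81.3 CPM in THRB WT and 79.2, 86.9 and 87.5 CPM in THRB KO livers. At ZT6 it was 88.0, 98.6 and 81.0 CPM in THRB WT and 79.9, 79.4 and 73.3 CPM in THRB KO. At ZT10 it was 68.5, 69.4 and 72.6 CPM in THRB WT and 67.1, 68.0 and 79.3 CPM in THRB KO. All THRB WT mice at ZT2 and ZT6 were above all THRB WT mice at ZT10, and at ZT6 the genotypes did not overlap. ZT14 livers reached 65.4, 69.7 and 64.2 CPM in THRB WT and 69.0, 69.7 and 102 CPM in THRB KO. ZT18 livers reached 64.1, 74.4 and 77.5 CPM in THRB WT and 73.2, 71.9 and 66.3 CPM in THRB KO. ZT22 livers reached 79.7, 79.7 and 84.8 CPM in THRB WT and 75.3, 73.4 and 71.9 CPM in THRB KO. THRB KO mouse c at ZT14 held the highest of the 36 values, against the low point of the THRB WT mice at the same time. The adjusted p was 0.0348 for sampling time and 0.00261 for a rhythm in THRB WT livers, and 0.625 in THRB KO livers (edgeR). Without the 2 mice that stand apart, the adjusted p of *Gsr* was 1.4e-04 for sampling time and 0.00235 in THRB WT, and *Gsr* passed in THRB KO as well (adjusted p = 0.019). The call for sampling time was lost without a filter on low counts (0.0603) and without the mice lettered a (0.42) or b (0.401), and that for the THRB WT rhythm without those lettered a (0.0774).

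*Nqo1* passed for sampling time (adjusted p = 0.0411, edgeR) and for a rhythm in THRB KO livers (0.014) but not in THRB WT livers (0.314). At ZT2 there were 4.60, 3.78 and 6.16 CPM in THRB WT and 5.52, 5.59 and 4.56 CPM in THRB KO livers. At ZT6 there were 5.21, 10.3 and 5.37 CPM in THRB WT and 5.83, 4.84 and 5.17 CPM in THRB KO. THRB WT mouse b at ZT6 stood far above the other two mice of its group. At ZT10 there were 6.06, 3.91 and 6.62 CPM in THRB WT and 10.3, 6.68 and 9.26 CPM in THRB KO. At ZT14 there were 8.48, 6.31 and 5.36 CPM in THRB WT and 7.95, 8.84 and 14.6 CPM in THRB KO. Around lights off the THRB KO means were thus the highest of the series for this gene, at 8.75 ± 1.87 and 10.5 ± 3.64 CPM (SD, n = 3 each), and the genotypes separated at ZT10 but overlapped at ZT14. ZT18 livers held 5.40, 5.39 and 6.39 CPM in THRB WT and 4.42, 5.37 and 9.64 CPM in THRB KO. ZT22 livers held 4.18, 5.15 and 4.65 CPM in THRB WT and 4.31, 7.88 and 6.41 CPM in THRB KO. These values overlapped, with a wide spread within THRB KO at both times. The rhythm call in THRB KO missed the threshold without the 2 mice that stand apart (adjusted p = 0.0508), and without the mice lettered c the adjusted p was 0.236. For sampling time it was 0.0305 without the 2 mice, 0.368 without the mice lettered a and 0.163 without those lettered c.

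The other 6 genes did not pass for sampling time or for a rhythm in either genotype over the full set of mice. Ratios of the highest to the lowest mean over both genotypes were between 1.09 (*Txnrd1*) and 1.20 (*Nfe2l2*). *Nfe2l2* ranged from 65.8 ± 6.79 CPM at ZT2 to 78.7 ± 8.46 CPM at ZT6 (SD, n = 6 each), with an adjusted p of 0.353 (edgeR). *Selenop* ranged from 3189.6 ± 391 CPM at ZT2 to 3734 ± 394 CPM at ZT10 (adjusted p = 0.113) and *Gpx1* from 2318 ± 304 CPM at ZT6 to 1963 ± 159 CPM at ZT14 (0.153). *Srxn1* had an adjusted p of 0.463 for sampling time and 0.119 for a rhythm in THRB WT livers with all mice, and of 0.0132 and 0.0376 without the 2 mice that stand apart, so its calls turn on them. With the mouse letter as a replicate block, *Gpx1* (0.0147) and *Selenop* (0.0166) passed for sampling time too. *Gpx4* reached an unadjusted p of 0.0293 for a rhythm in THRB KO livers (adjusted p = 0.0854).

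Whether the time courses differed between genotypes was tested directly. No gene of the whole table passed for the genotype by sampling time interaction (0% of 17994 genes, edgeR) or for a difference in rhythm (0%), so none of the 10 did. At an unadjusted p under 0.05, 2 of 10 genes were found for the interaction, *Gclc* (0.0439) and *Gsr* (0.0472), beside 2.69% of all genes (484 genes), and 1 of 10, *Gclc* (0.0456), for the rhythm, beside 3.07% (553 genes). DESeq2 likewise called 0 of the 10. The amplitude of *Gclc* was 0.57 ± 0.0644 in THRB WT livers and 0.32 ± 0.0789 in THRB KO livers (log2 CPM, ± standard error), a difference of -0.24 ± 0.102. Without the 2 mice that stand apart, the amplitudes of *Gclc* were 0.55 ± 0.0645 and 0.34 ± 0.0853, its unadjusted p-values were 0.0836 for the interaction and 0.107 for the rhythm, and that for *Gsr* was 0.271. *Gclm* had amplitudes of 0.22 ± 0.0411 and 0.22 ± 0.0301, which differ by less than their errors. For *Nqo1* they were 0.20 ± 0.117 in THRB WT livers and 0.45 ± 0.131 in THRB KO livers, a difference of 0.25 ± 0.175. Without the 2 mice they were 0.22 ± 0.0885 and 0.36 ± 0.124 for *Nqo1*. That *Gsr* passed for a rhythm in THRB WT alone and *Nqo1* in THRB KO alone is therefore no shown difference between genotypes.

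In some mice several NRF2 target enzymes departed together from the other mice of the group, and 2 mice stood apart. In THRB WT mouse b at ZT6, all 6 target enzymes (*Nqo1*, *Gclc*, *Gclm*, *Txnrd1*, *Srxn1* and *Gsr*) were the highest of the 3 mice, by a mean of 0.26 on the log2 scale above the group mean. *Srxn1* was at 77.4 CPM there against 48.1 and 39.6 CPM in mice a and c. The deviation was 0.63 for *Nqo1*, 0.55 for *Srxn1* and 0.15 for *Gsr*, but 0.10 for *Gclc* and 0.07 for both *Gclm* and *Txnrd1*. For *Gclc*, *Gclm* and *Txnrd1*, mouse b was barely above mouse c, at 495 against 485, 326 against 318 and 160 against 156 CPM. In THRB KO mouse c at ZT14, again all 6 were the highest, by a mean of 0.32, while mouse a of that group held the lowest value of all 6, with a mean of -0.27, so that part of the gap within this group lay on its side. That mouse a was also the lowest of the 3 for 38.8% of all tested genes. No other mouse had a mean beyond 0.18 in size. *Srxn1* was at 66.7 CPM in mouse c against 34.9 and 46.3 CPM in mice a and b, and *Txnrd1* at 177 against 139 and 146 CPM. The *Nfe2l2* transcript did not share this order. It was 80.8 CPM in THRB WT mouse b, between its group mates, and 52.1 CPM in THRB KO mouse c, the lowest of its group.

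**Figure D4:**
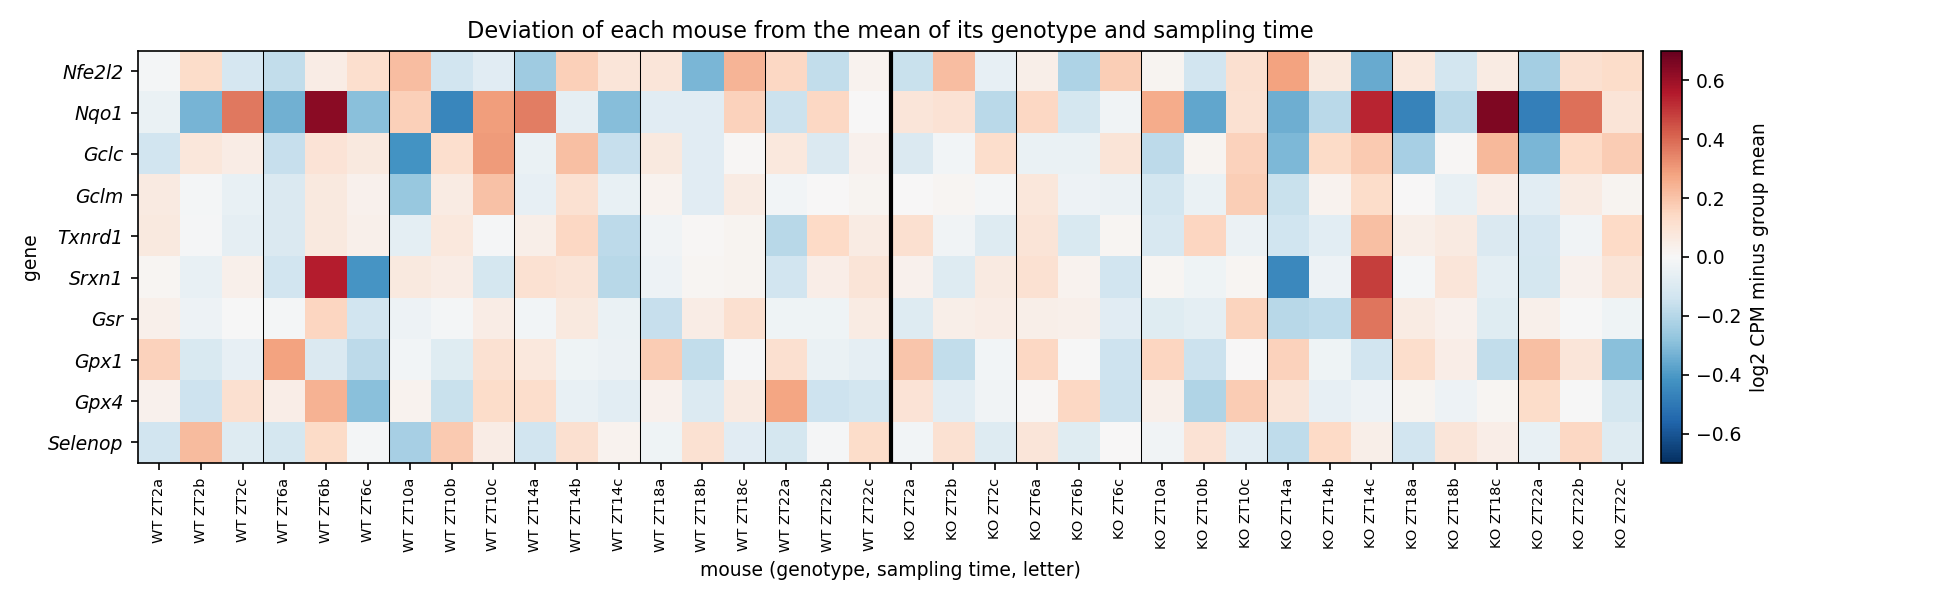
Log2 CPM of each gene in each mouse minus the mean of its genotype and sampling time (red above, blue below), with THRB WT mice left and THRB KO mice right of the heavy line. Nqo1, Srxn1 and Gsr are red together in THRB WT mouse ZT6b and in THRB KO mouse ZT14c.

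The 28 other tested NRF2 targets are mostly conjugating enzymes, transporters, pentose phosphate enzymes and ferritin chains. In THRB WT mouse b at ZT6, 24 of 28 were the highest of the 3 mice and 0 the lowest, against 31.5% of all tested genes that were highest in that mouse. *Gstm3*, a glutathione transferase, was at 663 CPM against 143 and 99.9 CPM in mice a and c. *Gsta1*, another glutathione transferase, was at 26.4 against 4.97 and 4.48 CPM. *G6pdx*, which feeds NADPH from glucose 6-phosphate, was at 33.1 against 8.32 and 5.00 CPM. The higher level in this mouse thus extended over most of the list. In THRB KO mouse c at ZT14, 14 of 28 were the highest and 6 the lowest, against 37.5% of all genes highest in that mouse. *Gsta1* was at 19.3 CPM against 6.28 and 5.23 CPM in mice a and b, and *Gstm3* at 204 against 101 and 101 CPM, while *G6pdx* was at 4.34 against 4.74 and 3.78 CPM. In the other 34 mice the number of the 28 targets that were highest ranged from 2 to 21. The 21 belonged to THRB WT mouse a at ZT22, in which 5 of the 6 member enzymes were the lowest. Of all tested genes, 34.9% were highest and 35.3% lowest in that mouse. More than 14 were also highest in THRB KO mice c at ZT10 (18, beside 31.0% of all genes), ZT18 (18, 34.8%) and ZT2 (15, 34.9%). In THRB WT mouse a at ZT14 the number was 17 (32.6%). By this count THRB KO mouse c at ZT14 did not stand apart on the list of other targets. The summed markers of hepatocytes (74698 and 81720.2 CPM), Kupffer cells (189 and 180.1), endothelial cells (104 and 104) and stellate cells (185 and 177) in the 2 mice lay within the range of their genotype. What set these mice apart was not tested.

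**Figure D5:**
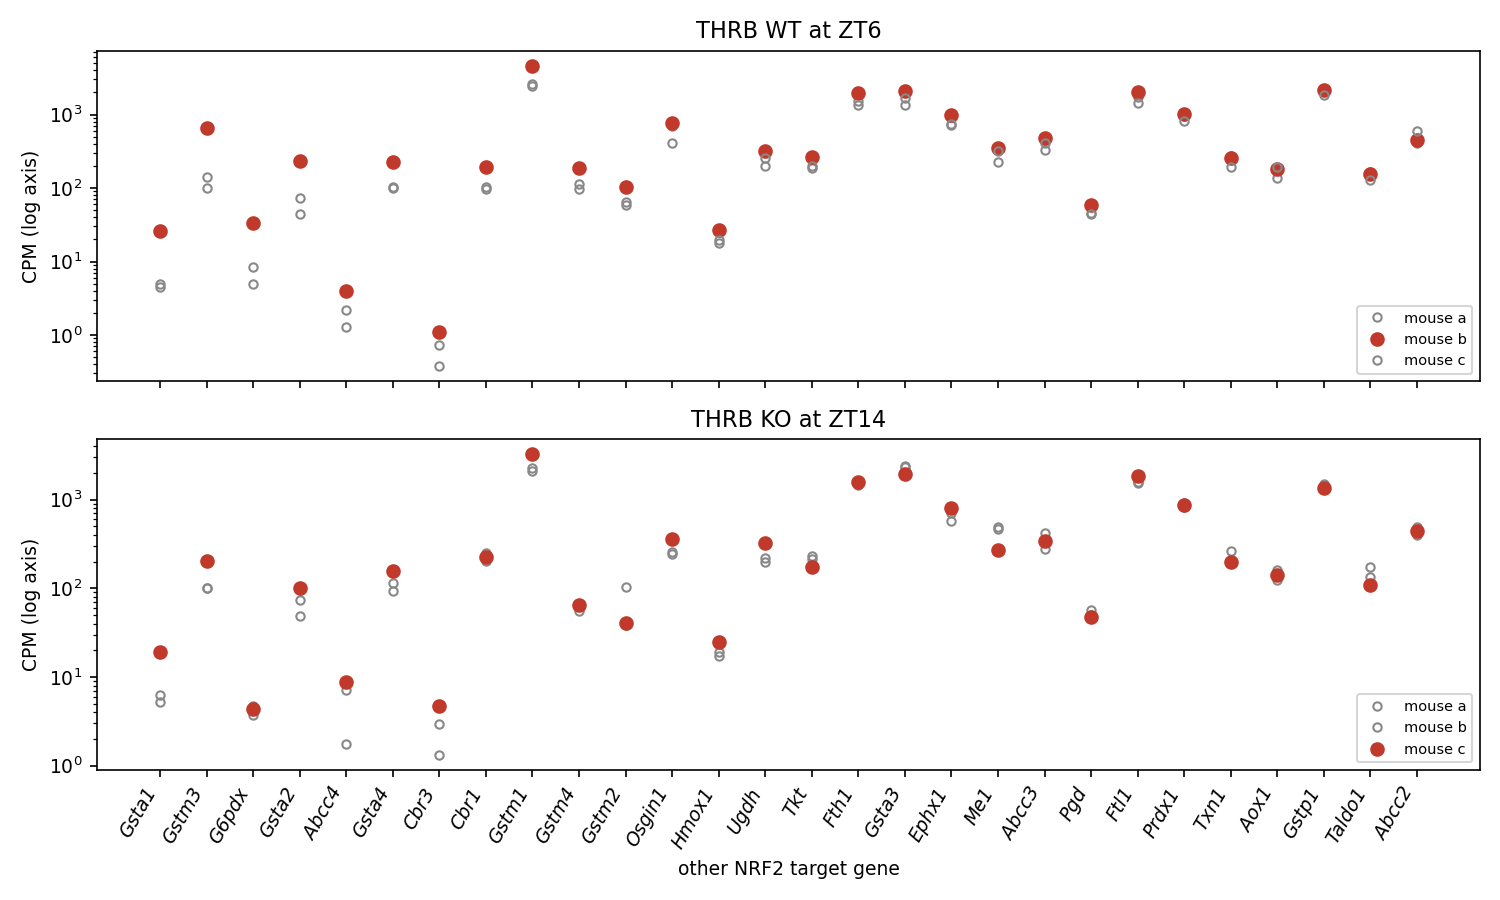
CPM (log axis) of 28 other NRF2 targets in the 3 THRB WT mice at ZT6 (top) and the 3 THRB KO mice at ZT14 (bottom), with the mouse singled out by its member enzymes in red. In the top panel 24 of 28 red points are above both grey ones, in the bottom panel 14 of 28.

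The letter of a mouse in the labels went with the level of some of the genes. The labels also give each mouse a number, and the THRB WT and THRB KO mice of the same time and letter had numbers at most 8 apart in 15 of 18 cases, while all 12 mice lettered a had lower numbers than every mouse lettered b or c. What the letters and numbers stand for is not given in the sources used here. Relative to the mean of the 3 mice in its group, the mouse lettered a was above for *Gpx4* in 12 of 12 groups and for *Gpx1* in 11 of 12, by a mean of 0.08 and 0.15 on the log2 scale. For *Selenop* the mouse lettered a was above in 1 and the mouse lettered b in 10 of 12 groups, and for *Gclc* the mouse lettered a was above in 2 and the mouse lettered c in 11 of 12. For *Nfe2l2*, *Nqo1*, *Gclm*, *Txnrd1*, *Srxn1* and *Gsr*, the mouse of each letter was above in 4 to 8 of 12 groups. How often such counts occur over all tested genes was not determined, so they are not shown to be particular to these genes. These letters are balanced over genotype and sampling time.

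Covariation between mice was measured as the correlation of deviations from the mean of genotype and sampling time, over 36 mice and 45 pairs of genes, with permutation within groups. This permutation does not keep the letters, so the p-values also take in what mice of 1 letter share. The 2 subunits of glutamate-cysteine ligase went together, with r = 0.77 (permutation p = 5.2e-04, adjusted over 45 pairs 0.0234) and rho = 0.68 (permutation p = 0.00113, adjusted 0.0254) for *Gclc* and *Gclm*. Without the 2 mice farthest from the median of *Gclc*, r was 0.70, and over all 36 mice with the mean of each letter removed it was 0.71. *Gpx1* and *Gpx4* had r = 0.56 (permutation p = 0.00439, adjusted 0.0658) and rho = 0.64 (permutation p = 4.6e-04, adjusted 0.0207), and r = 0.56 without the 2 farthest mice. With the mean of each letter removed, these 2 values were lower, at r = 0.40 and rho = 0.48. *Txnrd1* and *Srxn1* had r = 0.53 (permutation p = 0.00949, adjusted 0.107) and rho = 0.61 (permutation p = 0.00274, adjusted 0.0411), r = 0.42 without the 2 farthest mice, and r = 0.49 and rho = 0.54 with the letter means removed. These last 2 pairs passed the adjustment by rank and not by Pearson's r. *Srxn1* and *Gsr* reached r = 0.69 (permutation p = 0.00358, adjusted 0.0658) and rho = 0.50 (permutation p = 0.0104, adjusted 0.0934), and r fell to 0.51 without the 2 farthest mice, which are the 2 that stand apart. Without these 2 mice, r was 0.75 for *Gclc* and *Gclm*, 0.64 for *Gpx1* and *Gpx4* and 0.45 for *Txnrd1* and *Srxn1*. *Nfe2l2* did not pass with any of the other 9 genes.

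Over the 36 livers, with sampling time included, the profile most like that of each gene was sought among 12641 genes with a mean of at least 1 CPM, as a description. *Gclm* was closest to *Tns2* (r = 0.90) and *Bdh1* (r = 0.89), the latter a mitochondrial enzyme of ketone bodies. *Gclc* was closest to *0610030E20Rik* (r = 0.84) and *Cd9* (r = 0.83), *Gpx1* to *Ccs* (r = 0.86) and *Metap1d* (r = 0.81), and *Selenop* to *Gm13910* (r = 0.82) and *Ogdh* (r = 0.81). *Ccs* is the copper chaperone of superoxide dismutase and *Ogdh* a subunit of the oxoglutarate dehydrogenase complex. The gene most like *Srxn1* was the member *Gsr*, at r = 0.76, and the reverse held too. *Gpx4* was closest to its near-identical copy *Gpx4-ps2* (r = 0.92), with which it may share reads, and next to *Arpp19* (r = 0.86). Lower values were found for *Nqo1* with *Abcb1a* (r = 0.73) and *Slc16a7* (r = 0.73), *Txnrd1* with *Nploc4* (r = 0.73) and *Magi3* (r = 0.71), and *Nfe2l2* with *Gm45727* (r = 0.72) and *Zfp395* (r = 0.72).

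The genes around the members were read from lists of the same pathways. Of 11 regulators of NRF2, none passed for genotype (edgeR, median log2 fold change -0.01), and 7 passed for sampling time. The 3 with the smallest p for time were small MAF partners of NRF2 and the competing repressor *Bach1*, *Maff* from 1.91 ± 0.393 CPM at ZT22 to 9.38 ± 2.58 CPM at ZT10, *Mafg* from 86.5 ± 8.95 CPM at ZT22 to 135 ± 7.94 CPM at ZT10 and *Bach1* from 23.6 ± 4.60 CPM at ZT22 to 53.6 ± 11.1 CPM at ZT10 (SD, n = 6 each). All 3 were highest at ZT10 and lowest at ZT22. Of the 28 tested of 29 other NRF2 targets, none passed for genotype, beside 0.95% of all tested genes, while 12 passed for sampling time. Their median log2 fold change was -0.05, beside -0.0011 over all tested genes, with values from -0.40 to 0.34. Of these 28 fold changes, 8 were above 0, beside 49.5% of all genes. The fold changes, their median and this count take in THRB WT mouse b at ZT6 and were not computed without it. In that mouse 24 of the 28 were the highest of the 3 mice, beside 31.5% of all tested genes. The smallest p for time were those of the canalicular conjugate exporter *Abcc2*, the glutathione transferase *Gstm4* and *Osgin1*, which went from 299 ± 26.8 CPM at ZT22 to 568 ± 87.4 CPM at ZT10, from 58.1 ± 7.20 CPM at ZT14 to 112 ± 37.3 CPM at ZT6 and from 274 ± 47.5 CPM at ZT14 to 694 ± 232 CPM at ZT2, respectively. The ZT6 mean of *Gstm4* includes THRB WT mouse b at 185 CPM, against 115 and 96.8 CPM in THRB WT mice a and c.

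Of the 17 tested of 20 other selenoproteins, 1 was lower in THRB KO livers (beside 0.445% of all tested genes) and none higher, with a median log2 fold change of -0.04, and 7 passed for sampling time. The gene that fell was *Dio1*, the deiodinase that makes active thyroid hormone in liver, with 94.4 ± 32.0 CPM in THRB WT and 48.3 ± 12.3 CPM in THRB KO livers (SD, n = 18 each), or on the log2 scale a difference of -0.97 (standard error 0.137, adjusted p = 4.2e-05, edgeR). The fold changes of *Gpx1*, *Gpx4*, *Txnrd1* and *Selenop*, given above, were each under 0.17 in size. For time, *Selenoi*, *Txnrd3* and *Txnrd2* had the smallest p, *Selenoi* from 36.4 ± 3.08 CPM at ZT10 to 68.0 ± 3.24 CPM at ZT2, *Txnrd3* from 7.45 ± 1.25 CPM at ZT18 to 13 ± 1.5 CPM at ZT10 and *Txnrd2* from 32.9 ± 2.54 CPM at ZT14 to 43.2 ± 2.64 CPM at ZT6 (SD, n = 6 each). Of 11 genes of selenium handling and selenoprotein synthesis, 1 was higher in THRB KO livers (beside 0.506% of all tested genes), none was lower and 5 passed for sampling time. The gene that rose was *Lrp2*, an endocytic receptor that takes up selenoprotein P in kidney, at 1.70 ± 0.594 CPM in THRB WT and 2.91 ± 1.56 CPM in THRB KO livers (log2 fold change 0.71, standard error 0.183, adjusted p = 0.0454). The 3 genes with the smallest p for time in this list were highest in the light phase, *Sephs1* from 27.6 ± 1.56 CPM at ZT18 to 39.4 ± 2.39 CPM at ZT6, *Scly* from 76.8 ± 4.78 CPM at ZT14 to 102 ± 7.55 CPM at ZT2 and *Trnau1ap* from 13.3 ± 1.33 CPM at ZT22 to 17.8 ± 1.69 CPM at ZT10. Of the 22 tested of 23 other genes of glutathione, thioredoxin and peroxide metabolism, none passed for genotype (median -0.02) and 13 passed for sampling time. *Ggct* and *Chac1*, which break down glutathione-derived dipeptides and glutathione, and the glutaredoxin *Glrx* had the smallest p, *Ggct* from 5.18 ± 0.54 CPM at ZT10 to 10.7 ± 0.639 CPM at ZT22, *Chac1* from 1.14 ± 0.553 CPM at ZT22 to 5.08 ± 2.45 CPM at ZT10 and *Glrx* from 66.7 ± 13.7 CPM at ZT6 to 119 ± 14.8 CPM at ZT14. The shares passing for time were 63.6% of the regulators, 42.9% of the other targets, 41.2% of the other selenoproteins, 45.5% of the selenium genes and 59.1% of the glutathione and peroxide genes, beside 45% of all tested genes.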

How the data were processed

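Liver mRNA of 18 THRB WT (THRB+/-) and 18 THRB KO (THRB-/-) mice was sequenced as paired-end reads from non-directional libraries after poly-A selection. The authors removed reads of low quality, mapped the rest to GRCm38 (mm10) with HISAT2 and counted them per gene with featureCounts. They deposited raw counts for 54532 genes with the length of each gene model. Versions, annotation release and the treatment of reads with several matches are not given in the sources used here.

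The sample titles gave the genotype, the time and the mouse letter. The 17994 genes whose counts over 36 libraries reached a total of 100 or more were normalized by TMM and tested with edgeR 4.0.16 (glmQLFit, glmQLFTest, limma 3.58.1, R 4.3.3), with Benjamini-Hochberg adjustment and a threshold of 0.05. Sampling time was a factor in the test of genotype, and rhythms were tested with sine and cosine terms of 24 h within each genotype and as an interaction. Standard errors and 95% intervals were derived from the F statistic. Log2 CPM values had a prior count of 2. Amplitude and peak time came from a cosinor on log2 CPM with delta-method errors. Correlations used 100000 permutations of mice within genotype and sampling time. Near copies were sought with BLAST 2.17.0 (95% identity over 200 bases or more). Procedures were tested on simulated counts. Alternatives were DESeq2 1.42.0, its size factors, no filter, a replicate block and leaving out mice by letter. The block was time and letter together for genotype, the interaction and the rhythm difference, and the letter alone for the other tests. For genotype a run had no sampling time term, and for rhythms there were a cosinor F test and a threshold of unadjusted p under 0.01. Added after the data were seen were leaving out 2 mice, leaving out THRB KO mouse a at ZT14, and removing letter means from the correlations.

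The 10 genes and the gene lists were chosen with earlier results of these data known. All 10 were named, with each listed gene past the threshold for genotype, the 3 genes per list with the smallest p for sampling time and the 2 most alike genes per member. With 29063273 to 42530551 counts per library, depth limits the genes with few counts, here *Nqo1*.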

Additional observations from a re-analysis of the deposited data

How the results depend on the processing

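The fold change of *Selenop*, the only member called for genotype under any alternative, was above 0 in 10 of 10 alternatives. The sign of small fold changes was not fixed, with *Gclc* above 0 in 3, *Gsr* in 2 and *Srxn1* in 9 of 10. Tests of sampling time and rhythm have no direction. The number of the 10 called for genotype was 1 (*Selenop*) instead of 0 with DESeq2, with the replicate block, without the 2 mice that stand apart and without THRB KO mouse a at ZT14. Over all genes, 171 calls for genotype became 65 without the sampling time term, 306 with DESeq2, 387 with the replicate block and 40 to 81 when the mice of 1 letter were left out. These calls became 252 without the 2 mice that stand apart and 194 without THRB KO mouse a at ZT14. For sampling time, 4 of the 10 became 2 to 3 when 1 letter was left out, while over all genes 8106 calls became 5841 to 6385. *Gclc* and *Gclm* passed for sampling time under all 9 alternatives. With the replicate block *Gpx1* (adjusted p = 0.0147) and *Selenop* (0.0166) passed too, and without a filter *Gsr* did not (0.0603). For a rhythm, the number of genes called over the whole table was 3109 to 4005 in THRB WT and 2343 to 3192 in THRB KO livers when 1 letter was left out, from 5936 and 5201. *Nqo1* lost its rhythm call in THRB KO livers with a cosinor F test on log2 CPM (0.0507), and *Gpx4* gained one with DESeq2 (0.0447). The replicate block raised the genes with a rhythm difference from 0 to 1, none of them among the 10. At single sampling times, 21 calls over the 6 times and all genes became 52 with DESeq2, 43 without a filter and 7 to 18 when 1 letter was left out. Of the single values of the 10 genes under the alternatives, 380 stayed on the same side of the threshold, 10 lost and 10 gained a call. The 380 include the rhythm values of the run at an unadjusted p under 0.01. Those repeat the adjusted p of the main test and could not change side. In the main tests, mice that share a time and a letter were not taken as paired. The replicate block for genotype, the interaction and the rhythm difference did take such mice as pairs. Their deviations correlated at -0.04 to 0.22, above 0.1 in 9 of 18 pairs, and 15 of 18 correlated best with their own letter. Their numbers in the labels lie close together in 15 of 18 cases, but no source used here says that a letter or number marks a shared litter, batch or day. Depth limits *Nqo1* most, at 126 to 654 counts per library.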
